A study of Homo sapiens with 24 samples.

Results

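SET2 cells that grow in the presence of the JAK inhibitor INC424 were compared with SET2 cells that had met the same inhibitor for 48 h only. The members are 6 libraries of the 24 in the series, chosen by their labels: 3 of the INC424 persistent line and 3 of previously naive cells given INC424 for 48 h. SET2 is a human megakaryoblastic line established from a myeloproliferative neoplasm, and its growth depends on the tyrosine kinase JAK2. INC424 is ruxolitinib, an inhibitor that binds the active form of JAK1 and JAK2 and is therefore called type I. The persistent line was cultured with inhibitor in the medium throughout, so both groups were exposed to it when RNA was taken. All cells were kept in RPMI1640 with 20% FCS. The persistent cells are a single line, and neither the time it took to establish nor any inhibitor concentration is given. Cells that received INC424 or the vehicle DMSO for 4 h, and untreated naive cells, are cited as levels without a test, since no vehicle group of 48 h was analysed here.

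JAK2 passes signals from the erythropoietin and granulocyte-macrophage receptors to STAT5 and, through adaptor proteins, to the MAPK and PI3K pathways. STAT5 induces survival and feedback genes such as PIM1, BCL2L1 and CISH, PI3K signalling holds FOXO transcription factors in the cytoplasm, and both routes feed growth and the cell cycle. ATF4 is a transcription factor whose mRNA is translated when the initiation factor eIF2 is phosphorylated, as happens on amino acid shortage. It induces amino acid synthesis and import, tRNA charging enzymes and stress regulators. Cells of the erythroid and megakaryocytic lineages lose progenitor genes such as KIT and CD34 as they mature and gain globins or platelet genes.

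Poly(A) RNA was sequenced on the Ion Proton. The 6 libraries held 25636056 to 36160750 reads assigned to genes. Values are normalised read counts, which the authors made by scaling each library to a common size. They are given per library, or as mean ± SD over the 3 libraries of a group. Differences are log2 differences of the normalised count plus 1, persistent minus 48 h, with the standard error (SE) and the Benjamini-Hochberg adjusted p of a limma fit to the 6 libraries. A gene passed at an adjusted p under 0.05. The labels do not say whether replicates were separate cultures, so the p-values measure the spread between these libraries, which may be technical. Of the megakaryocytic markers ITGA2B, the platelet integrin alpha IIb, was abundant, at 63626 ± 5870 in the persistent line and 89307 ± 2719 after 48 h. Not all such markers were: PF4, a platelet chemokine, had 461 reads in the persistent line and 3 after 48 h.

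Libraries differed in transcripts that mark other cell types. Of 15 squamous epithelium markers, summed normalised counts were 2400, 9304 and 1937 in persistent libraries 1, 2 and 3, against 295, 133 and 6550 in 48 h libraries 1, 2 and 3. Persistent library 2 and 48 h library 3 were thus the richest of their groups, with 0.0332% and 0.0239% of their reads. KRT5, a basal keratin, was 685, 3842 and 652 in the persistent libraries, against 71.3, 18.4 and 2688 in the 48 h libraries. None of these 15 markers was at 0 in all libraries of a group. Of 15 fibroblast and vessel markers in the table, 2 were at 0 in all persistent libraries and 1 in all 48 h libraries, and of 13 lymphoid markers 2 were at 0 in either group, IGKC and IGHM. Outside the 6 libraries, CYT387 persistent library 2 had 0.579% of its reads in the squamous markers, so the fit was kept to the 6 libraries compared.

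Of 17862 genes tested, 9287 differed (52%). In the persistent line 4530 genes were higher (25.4%) and 4757 were lower (26.6%). Differences of at least 1 on the log2 scale were found for 1359 higher genes (7.61%) and 2018 lower genes (11.3%). The 3 persistent and 3 48 h libraries did not overlap for 10597 genes (59.3%), and the median log2 difference was -0.02. These shares are the background against which the counts of each gene group are read below. The 4757 lower genes included the receptor KIT, the progenitor marker CD34 and the giant scaffold protein gene AHNAK, and the 4530 higher genes included the amino acid enzymes CBS and PSAT1.

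**Figure D1:**
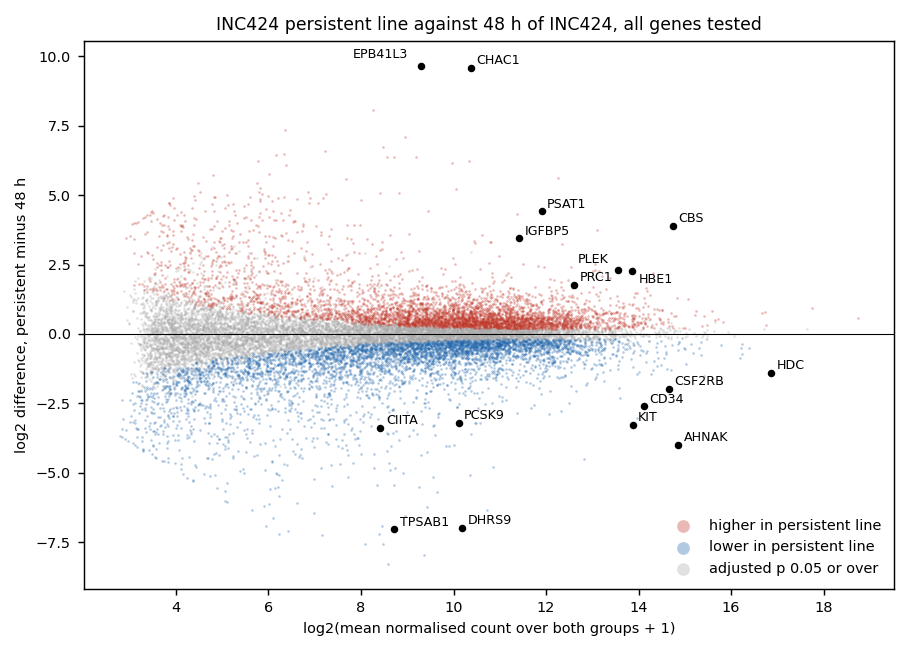
Each point is 1 of the 17862 genes tested, with the log2 of the mean normalised count on the horizontal axis and the log2 difference, persistent line minus 48 h of INC424, on the vertical axis. Red genes were higher and blue genes lower in the persistent line at an adjusted p under 0.05, and the 17 labelled genes are among those described in the text.

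Genes of amino acid supply were higher in the persistent line. All 29 genes listed as ATF4 targets and amino acid stress genes passed the filter on low values, and 26 of them rose while none fell. Of these, 25 rose by at least 1 on the log2 scale. The list's median log2 difference was 2.32, beside -0.02 over all genes. The 3 members that did not pass were ATF5 (log2 difference 0.18), STC2 (0.70) and ALDH18A1 (-0.13), and ATF5 passed with TMM scaling or edgeR. ATF4 itself, named here because the list is built on it, averaged 27827 ± 1491 in the persistent line and 8725 ± 344 after 48 h (log2 difference 1.67 ± 0.07, adjusted p = 1.1e-08).

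The promoters of 3 members are shown because they hold TGATGCA, the core of the element that ATF4 binds together with a C/EBP partner, and because these genes moved together. Each is 300 bases from 250 before to 50 after the RefSeq start in GRCh38.p14, printed 5′ to 3′ along the gene, with the motif in capitals on whichever strand it lies.
CHAC1 (chr15:40953221-40953520, plus strand): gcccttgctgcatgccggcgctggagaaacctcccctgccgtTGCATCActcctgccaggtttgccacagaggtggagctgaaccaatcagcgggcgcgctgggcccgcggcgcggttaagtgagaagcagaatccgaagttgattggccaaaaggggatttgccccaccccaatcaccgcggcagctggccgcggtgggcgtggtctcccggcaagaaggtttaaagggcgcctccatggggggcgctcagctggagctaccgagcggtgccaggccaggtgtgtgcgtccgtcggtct
PHGDH (chr1:119711684-119711983, plus strand): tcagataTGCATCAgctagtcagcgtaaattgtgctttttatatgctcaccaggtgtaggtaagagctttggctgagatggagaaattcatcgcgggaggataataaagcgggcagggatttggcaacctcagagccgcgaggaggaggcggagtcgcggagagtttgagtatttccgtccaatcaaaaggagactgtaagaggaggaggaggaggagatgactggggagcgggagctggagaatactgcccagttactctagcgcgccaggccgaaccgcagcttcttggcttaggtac
CEBPG (chr19:33373863-33374162, plus strand): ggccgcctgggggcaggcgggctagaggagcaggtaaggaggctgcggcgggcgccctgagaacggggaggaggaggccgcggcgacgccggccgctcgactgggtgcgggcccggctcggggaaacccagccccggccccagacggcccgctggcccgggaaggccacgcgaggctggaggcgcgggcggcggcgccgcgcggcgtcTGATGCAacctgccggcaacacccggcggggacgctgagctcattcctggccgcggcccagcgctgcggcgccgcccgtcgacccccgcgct
The motif lies 208, 243 and 42 bases before the start in CHAC1, PHGDH and CEBPG. Of the 23 list members with a promoter in the RefSeq table, 3 held the motif on either strand (13.0%), beside 885 of all 27305 genes (3.2%). These counts describe 300 bases only, and no binding was measured.

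CHAC1, which degrades glutathione and is a standard ATF4 target, had 2754, 2182 and 3071 normalised counts in the persistent libraries, against 0.938, 9.71 and 1.00 in the 48 h libraries. It was thus near absent after 48 h, with 12 reads over the 3 libraries against 8867 in the persistent line (log2 difference 9.58 ± 0.53, adjusted p = 9.5e-08, and 10.39 without 48 h library 2). In untreated naive cells CHAC1 averaged 937 ± 39.8, but 37.4 ± 12.8 after 4 h of the vehicle DMSO and 12.1 ± 2.86 after 4 h of INC424. The vehicle group was thus also far under naive cells. ASNS, asparagine synthetase, had 4427, 5418 and 5191 in the persistent libraries, against 244, 202 and 322 after 48 h (log2 difference 4.31 ± 0.15). ADM2, a secreted peptide of the adrenomedullin family, averaged 880 ± 127 in the persistent line and 26.0 ± 8.26 after 48 h (log2 difference 5.07 ± 0.24). For each of these genes the lowest persistent library was above the highest 48 h library. CEBPG, a partner of ATF4, rose by less (log2 difference 1.88 ± 0.09), and TRIB3, a pseudokinase that restrains the response, rose with a log2 difference of 3.30 ± 0.11.

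Serine synthesis and the folate cycle followed the same direction. In the list of 14 tested members 11 rose and none fell, with a median log2 difference of 1.51. PHGDH, which starts serine synthesis from glycolysis, had 19193, 12123 and 17721 in the persistent libraries, against 1190, 1111 and 1336 after 48 h (log2 difference 3.73 ± 0.14, adjusted p = 7.8e-09). PSAT1, the next enzyme, had 7793, 7424 and 6805 in the persistent libraries, against 316, 316 and 405 after 48 h (log2 difference 4.41 ± 0.11, adjusted p = 3e-10). The mitochondrial folate enzymes SHMT2 and ALDH1L2 had log2 differences of 2.32 ± 0.08 and 3.61 ± 0.15. CBS, which makes cystathionine from serine and homocysteine, had 57697, 45429 and 50554 in the persistent libraries, against 3241, 3300 and 3708 after 48 h (log2 difference 3.90 ± 0.09, adjusted p = 2.8e-10). None of these 5 genes overlapped between the groups.

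Importers and tRNA charging enzymes were higher as well. Of 14 amino acid transporters 11 rose and 2 fell, with a median log2 difference of 1.61. SLC7A5, the light chain of the large neutral amino acid exchanger, had 14349, 15010 and 13961 in the persistent libraries, against 2288, 2062 and 3301 after 48 h (log2 difference 2.53 ± 0.14). SLC7A11, the cystine importer, averaged 3571 ± 647 in the persistent line and 506 ± 18.7 after 48 h (log2 difference 2.80 ± 0.12). SLC7A3, a cationic amino acid transporter, had 182 reads in the persistent line and none after 48 h, which makes it at least 56.6-fold higher against a floor of 3 reads over the group. Of 20 cytosolic aminoacyl-tRNA synthetases and relatives 18 rose and 1 fell, with a median log2 difference of 0.98. AARS, the alanyl enzyme, had 35488, 29433 and 35048 in the persistent libraries, against 7070, 6884 and 7651 after 48 h (log2 difference 2.21 ± 0.08). The member that fell was DARS, the aspartyl enzyme, at 1923, 1984 and 1984 in the persistent libraries, against 2476, 2472 and 2478 after 48 h (log2 difference -0.33 ± 0.07).

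**Figure D2:**
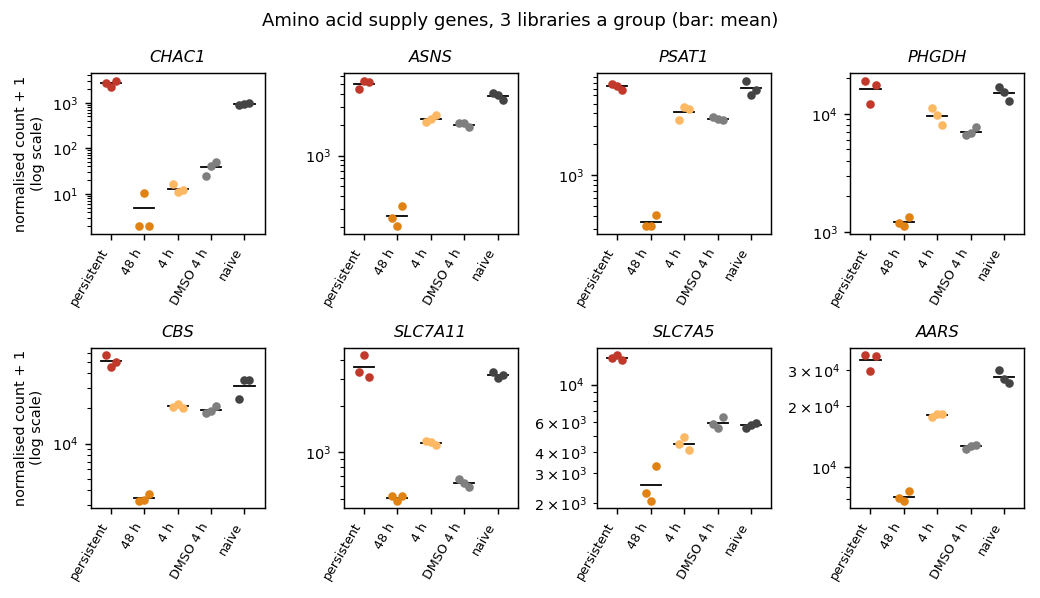
Normalised counts plus 1 on a log axis for 8 genes of amino acid synthesis, import and tRNA charging, 1 point per library and a bar at the mean of 3, in the persistent line, after 48 h and 4 h of INC424, after 4 h of DMSO and in naive cells. In every panel all 3 persistent libraries lie above all 3 libraries of 48 h, as with CHAC1 at 2182 to 3071 against 0.938 to 9.71.

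Regulators of stress and growth that share the ATF4 list rose too. DDIT4, an inhibitor of mTORC1, averaged 9416 ± 1876 in the persistent line and 996 ± 149 after 48 h (log2 difference 3.23 ± 0.14). SESN2, a leucine sensor that also restrains mTORC1, had 2475, 2488 and 2714 in the persistent libraries, against 249, 229 and 306 after 48 h (log2 difference 3.29 ± 0.12). ATF3, a stress transcription factor, averaged 733 ± 17.6 in the persistent line and 61.7 ± 16.4 after 48 h (log2 difference 3.58 ± 0.19). Chaperones of the endoplasmic reticulum did not share this direction: of 20, 6 rose and 8 fell, with a median log2 difference of -0.18. HSPA5, the main chaperone of that compartment, was 13167 ± 340 in the persistent line and 17429 ± 965 after 48 h (log2 difference -0.40 ± 0.07).

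Cell cycle genes were higher in the persistent line. Of 40 S phase genes 39 rose and none fell, with a median log2 difference of 1.05, and of 34 G2 and M phase genes all 34 rose, with a median of 1.23. The S phase member that did not pass was MCM6, a subunit of the replicative helicase, with a log2 difference of 0.14. E2F2, a transcription factor that drives S phase genes, had 3259, 2844 and 2919 in the persistent libraries, against 694, 658 and 637 after 48 h (log2 difference 2.18 ± 0.08, adjusted p = 7.8e-09). CDC45, which activates the helicase, had 3087, 2922 and 3150 in the persistent libraries, against 1004, 1070 and 1032 after 48 h (log2 difference 1.56 ± 0.07). PRC1, which bundles microtubules of the late spindle, had 9601, 9994 and 9438 in the persistent libraries, against 2863, 2867 and 2776 after 48 h (log2 difference 1.77 ± 0.06). Both groups of libraries were tight and did not overlap for any of the 74 genes of these lists. A smaller share of dividing cells and less RNA of these genes per cell cannot be told apart in bulk RNA.

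E2F factors bind sites that hold TTGGCGC or TTCCCGC. The promoters of 2 S phase genes are shown with the motif in capitals, taken and printed as above.
E2F2 (chr1:23531184-23531483, minus strand): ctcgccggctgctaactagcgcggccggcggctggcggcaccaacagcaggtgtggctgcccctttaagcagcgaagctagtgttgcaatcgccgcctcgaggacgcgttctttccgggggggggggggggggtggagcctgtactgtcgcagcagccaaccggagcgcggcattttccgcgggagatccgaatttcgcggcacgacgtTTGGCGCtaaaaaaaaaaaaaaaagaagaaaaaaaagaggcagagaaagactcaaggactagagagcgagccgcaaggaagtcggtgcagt
RFC3 (chr13:33817899-33818198, plus strand): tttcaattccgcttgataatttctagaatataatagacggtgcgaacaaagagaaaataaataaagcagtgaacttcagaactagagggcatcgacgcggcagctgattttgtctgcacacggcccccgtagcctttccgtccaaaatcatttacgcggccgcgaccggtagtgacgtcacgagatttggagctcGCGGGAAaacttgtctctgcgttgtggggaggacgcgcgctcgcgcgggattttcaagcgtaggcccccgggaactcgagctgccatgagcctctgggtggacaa
The motif lies 41 bases before the start in E2F2, where it reads along the gene, and 55 bases before the start in RFC3, the clamp loader subunit, where it lies on the other strand. Counting a gene once whether it held TTGGCGC or TTCCCGC, on either strand, 26 of 36 S phase genes with a RefSeq promoter had a match (72.2%), beside 2993 of all 27305 genes (11.0%). Both sequences are a description of the start regions and not evidence of occupancy.

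The D cyclins and their partners were mixed, with 5 of 13 higher and 5 lower. CCND3, the cyclin that pairs with CDK6 in blood cells, had 17083, 12625 and 15939 in the persistent libraries, against 4788, 4867 and 5100 after 48 h (log2 difference 1.62 ± 0.10). CCND2 fell, at 2987 ± 171 in the persistent line and 4879 ± 62.9 after 48 h, as did CDK6 (log2 difference -0.66). The inhibitor CDKN1A averaged 477 ± 76.1 in the persistent line and 984 ± 44.5 after 48 h (log2 difference -1.05 ± 0.12), while CDKN2D rose (log2 difference 1.58 ± 0.12). Ribosome biogenesis genes were higher for 24 of 36 and lower for 2 (4 without persistent library 2), with a median log2 difference of 0.44. NPM1, the nucleolar protein nucleophosmin, averaged 11336 ± 162 in the persistent line and 6835 ± 314 after 48 h. Of 30 genes of oxidative phosphorylation 22 rose and none fell, with a median of 0.48. In a fit of all 8 groups 14 of the 30 rose and none fell.

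Transcripts of replication-dependent histones, which normally lack a poly(A) tail, moved the other way. Of 15 tested, 11 fell and none rose, with a median log2 difference of -1.41. HIST1H2AC had 231, 384 and 293 in the persistent libraries, against 2533, 2991 and 2659 after 48 h (log2 difference -3.19 ± 0.16). Together the histone genes took 0.00464% to 0.00557% of reads in the persistent line and 0.0203% to 0.0222% after 48 h. Histone genes share near-identical sequence, so single members are uncertain. The part of poly(A) selection in this difference was not tested.

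Direct JAK-STAT target genes were only partly higher. Of 15 in the list 7 rose and 3 fell, with a median log2 difference of 0.54. PIM1, a survival kinase induced by STAT5, had 14418, 12602 and 13622 in the persistent libraries, against 4698, 4722 and 4781 after 48 h (log2 difference 1.51 ± 0.07, adjusted p = 2.2e-08). Naive cells averaged 33430 ± 930 for PIM1 without inhibitor, above both. PIM2, its relative, had 7640, 6077 and 7119 in the persistent libraries, against 1757, 1731 and 1732 after 48 h (log2 difference 1.99 ± 0.09). BCL2L1, which encodes the anti-apoptotic BCL-XL, had 8233, 7107 and 8484 in the persistent libraries, against 2721, 2467 and 2715 after 48 h (log2 difference 1.59 ± 0.08). None of these 3 genes overlapped between the groups. The feedback genes CISH (log2 difference 0.92 ± 0.10) and SOCS3 (0.85 ± 0.11) rose by less, while SOCS2 had a log2 difference of 0.11 and did not pass. CISH, SOCS3 and SOCS2 are given because they are the pathway's usual readouts and were picked after their values were seen. IL2RA, the alpha chain of the interleukin-2 receptor and a STAT5 target, fell in contrast, with 5.67, 4.26 and 4.75 in the persistent libraries, against 62.8, 75.7 and 67.1 after 48 h (log2 difference -3.56 ± 0.37).

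Readouts of MAPK signalling rose for 8 of 15 tested genes and fell for 3, with a median log2 difference of 1.23. DUSP6, a phosphatase that ERK induces to limit itself, had 97.5, 86.0 and 64.2 in the persistent libraries, against 11.3, 14.6 and 16.0 after 48 h (log2 difference 2.48 ± 0.32). Naive cells averaged 754 ± 53.4. ETV4, an ERK-induced transcription factor, averaged 260 ± 38.9 in the persistent line and 56.5 ± 35.6 after 48 h, and 2722 ± 240 in naive cells. SPRY2 and SPRY1, inhibitors of receptor signalling, fell with log2 differences of -0.88 and -0.69. The mean level of this list was highest in the library of each group that was richest in squamous markers, at -0.32 in persistent library 2 and -1.40 in 48 h library 3, on the scale relative to naive cells used below. Without those 2 libraries 10 of 15 rose and 3 fell, with a median of 1.27. Relative to naive cells the list stood at -1.03 to -0.32 in the persistent libraries and -2.20 to -1.40 after 48 h. After 4 h of DMSO it stood at -0.69 to -0.34, so the vehicle and persistent libraries overlapped.

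The kinases and STATs themselves differed little. JAK2 averaged 3865 ± 350 in the persistent line and 4633 ± 124 after 48 h (log2 difference -0.26 ± 0.08, adjusted p = 0.013), a call that was lost in 4 of 22 alternatives, among them the fit without 48 h library 2. JAK1 (log2 difference 0.17, a call lost in 12 of 22), JAK3 (0.46), STAT3 (0.28) and STAT5B (0.27) rose slightly. The calls of JAK3, STAT3 and STAT5B were each lost in 1 of 22, the fit of all 8 groups. TYK2 (-0.18) and STAT5A (0.15) did not pass, although TYK2 did without persistent library 3 and STAT5A without persistent library 2. The call of JAK1 was lost on leaving out any 48 h library, or persistent library 1 or 3, among others. Among negative regulators SH2B3, an adaptor that restrains JAK2, rose at 2584 ± 157 in the persistent line and 1333 ± 115 after 48 h, and the phosphatase PTPN6 fell at 4642 ± 779 in the persistent line and 9880 ± 656 after 48 h.

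Several cytokine receptors were lower, as were KIT and CD34, while the stem and progenitor list was split. Of 27 JAKs, STATs and cytokine receptors tested 15 fell and 5 rose, with a median log2 difference of -0.27, and 8 fell by at least 1. The 5 rises became 3 on leaving out any 48 h library, or persistent library 1 or 3. Of 10 stem and progenitor genes tested 4 fell and 3 rose, with a median log2 difference of 0.05: CD34, KIT, GATA2 and HOXA10 fell, and CRHBP, MEIS1 and MECOM rose. KIT, the stem cell factor receptor, had 2751, 2975 and 2726 in the persistent libraries, against 27148, 27804 and 26479 after 48 h (log2 difference -3.27 ± 0.07, adjusted p = 1.1e-10). CD34, a surface protein of progenitors, had 5421, 4734 and 5006 in the persistent libraries, against 29133, 31529 and 31143 after 48 h (log2 difference -2.60 ± 0.07, adjusted p = 7.1e-10). The 3 persistent libraries lay close together and far under the 48 h libraries for both genes. CSF2RB, the beta chain shared by the interleukin-3, interleukin-5 and granulocyte-macrophage receptors, had 11235, 9620 and 10646 in the persistent libraries, against 40471, 41544 and 41405 after 48 h (log2 difference -1.97 ± 0.07). IL6R, the interleukin-6 receptor, averaged 70.1 ± 15.8 in the persistent line and 791 ± 29.2 after 48 h (log2 difference -3.50 ± 0.17), and CSF3R averaged 144 ± 8.73 and 633 ± 39.3 in the same groups (log2 difference -2.13 ± 0.13). S1PR1, a lipid receptor that FOXO1 induces, had 117, 101 and 122 in the persistent libraries, against 1551, 1350 and 1390 after 48 h (log2 difference -3.65 ± 0.12).

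Transcription factors of the lineage fell with the receptors. Of 17 tested 12 fell and 3 rose, with a median log2 difference of -0.49. MYB, which keeps progenitors dividing and immature, had 3455, 3504 and 3350 in the persistent libraries, against 11985, 11620 and 11347 after 48 h (log2 difference -1.76 ± 0.06, adjusted p = 4.3e-09). SPI1, the myeloid factor PU.1, averaged 552 ± 53.6 in the persistent line and 1663 ± 145 after 48 h, and GATA2, a progenitor and mast cell factor, 14061 ± 2276 and 27083 ± 1396. KLF1, the erythroid factor, averaged 5971 ± 665 in the persistent line and 12850 ± 733 after 48 h (log2 difference -1.11 ± 0.09). FOXO and PI3K-repressed genes fell for 13 of 20 tested and rose for 1, with a median of -0.74. FOXO1 averaged 403 ± 53.3 in the persistent line and 1231 ± 110 after 48 h, and CITED2, a FOXO-induced transcriptional regulator, had a log2 difference of -1.55 ± 0.10.

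Antigen presentation genes were lower. All 11 tested MHC class II genes fell, of 12 in the list, with a median log2 difference of -1.84, and 12 of 16 MHC class I and peptide loading genes fell while 1 rose. CIITA, the master activator of class II genes, had 44.2, 65.6 and 69.7 in the persistent libraries, against 610, 627 and 633 after 48 h (log2 difference -3.39 ± 0.19, adjusted p = 9.4e-08). CD74, the invariant chain that escorts class II molecules, had 1335, 1106 and 1489 in the persistent libraries, against 8757, 8777 and 9408 after 48 h (log2 difference -2.79 ± 0.10). HLA-DRA averaged 472 ± 102 in the persistent line and 1946 ± 51.1 after 48 h. No class II gene overlapped between the groups, and HLA genes share sequence, so values of single HLA genes are uncertain. Interferon-stimulated genes were split, with 9 of 28 higher and 11 lower.

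Granule genes of mast cells, basophils and eosinophils fell for all 10 tested, of 16 in the list, with a median log2 difference of -3.40. HDC, which makes histamine, had 68540, 64341 and 63576 in the persistent libraries, against 171161, 181176 and 169570 after 48 h (log2 difference -1.41 ± 0.07). TPSAB1, a mast cell tryptase, had 3.40, 5.96 and 7.13 in the persistent libraries, against 960, 690 and 859 after 48 h (log2 difference -7.04 ± 0.28). TPSB2 had 11.3, 9.37 and 7.92 in the persistent libraries, against 912, 956 and 1057 after 48 h (log2 difference -6.54 ± 0.21). The tryptase genes are near-identical copies, so their counts may be split between them, and no persistent library had over 15.9 of TPSAB1, TPSB2 or TPSD1. PRG2, the eosinophil major basic protein, averaged 4.57 ± 5.25 in the persistent line and 706 ± 76.7 after 48 h (log2 difference -7.58 ± 0.66, and -6.64 or -8.39 without persistent library 2 or 3).

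**Figure D3:**
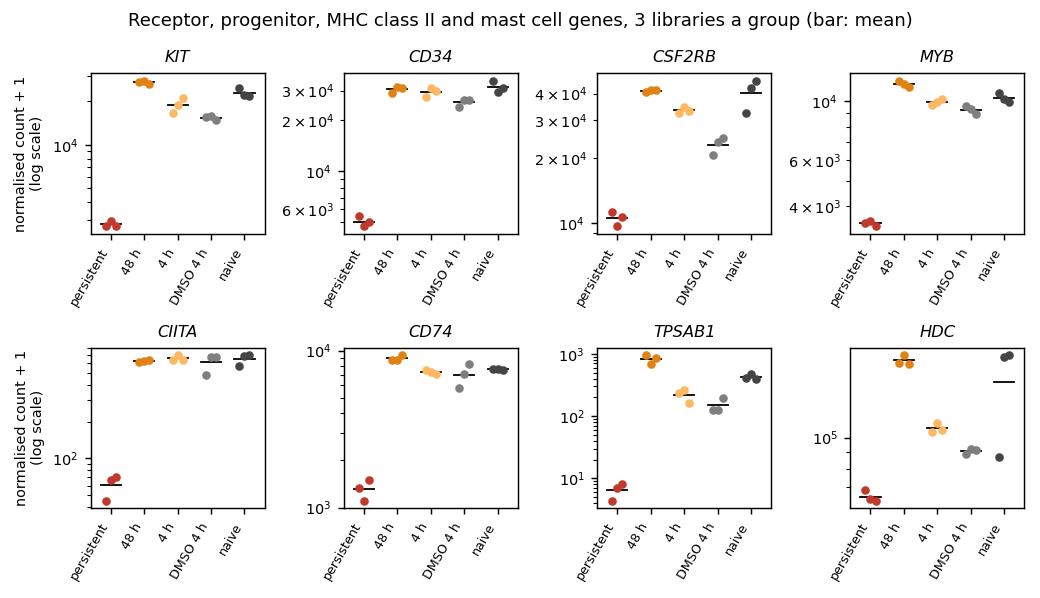
Normalised counts plus 1 on a log axis for the receptor and progenitor genes KIT, CD34, CSF2RB and MYB, the class II genes CIITA and CD74, and the mast cell genes TPSAB1 and HDC, 1 point per library and a bar at the mean of 3. The 3 persistent libraries lie below all 48 h libraries in every panel, as with KIT at 2726 to 2975 against 26479 to 27804.

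Terminal erythroid genes did not move as a block. Of 11 globin genes 7 rose and none fell, with a median log2 difference of 0.92, and 1.32 without persistent library 2 and 48 h library 3. HBE1, embryonic epsilon globin, had 22127, 25798 and 25783 in the persistent libraries, against 5238, 4783 and 5108 after 48 h (log2 difference 2.28 ± 0.08, adjusted p = 3.5e-09). HBA2, an adult alpha globin nearly identical to HBA1, had 7566, 4500 and 7284 in the persistent libraries, against 2838, 2047 and 2273 after 48 h (log2 difference 1.41 ± 0.18). ALAS2, the first enzyme of haem synthesis in red cells, was lower instead, with 3569, 3168 and 3294 in the persistent libraries, against 8381, 8683 and 8839 after 48 h (log2 difference -1.37 ± 0.07). UROD, a later enzyme, rose, with 22820, 22821 and 22857 in the persistent libraries, against 8257, 8070 and 8663 after 48 h. SLC25A37, the mitochondrial iron importer, averaged 21575 ± 1166 in the persistent line and 45302 ± 791 after 48 h (log2 difference -1.07 ± 0.07). Of 20 haem and iron genes 4 rose and 7 fell, and of 21 red cell membrane genes 7 rose and 6 fell. SLC4A1, the band 3 anion exchanger, rose (log2 difference 1.71 ± 0.10), while EPB42, which links band 3 to the membrane skeleton, fell (log2 difference -1.60 ± 0.08).

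Megakaryocyte and platelet genes rose for 17 of 24 and fell for 4, with a median log2 difference of 0.82. PLEK, pleckstrin, a protein kinase C substrate of platelets, had 19959, 19604 and 20064 in the persistent libraries, against 4079, 4019 and 3977 after 48 h (log2 difference 2.30 ± 0.06, adjusted p = 6.2e-10). PF4, a chemokine of platelet granules, had 168, 86.9 and 167 in the persistent libraries, against 2.81, 0 and 0 after 48 h. Its 461 reads in the persistent line and 3 after 48 h give a ratio of 143 (95% interval 48.7 to 698, counting error only). All 3 libraries of the naive, DMSO and INC424 4 h groups were listed at 0 for PF4. ITGA2B, the adhesion receptor SELP and the collagen receptor GP6 fell with log2 differences of -0.49, -0.72 and -0.76.

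The largest single differences were in genes near absence in the other group. EPB41L3, a membrane skeleton protein, had 1364, 1239 and 1185 in the persistent libraries, against 0.938, 0.971 and 0 after 48 h, a ratio of 1940 from 4153 and 2 reads (95% interval 536 to 16000, counting error only). HENMT1, which methylates small RNAs in germ cells, had 566, 640 and 615 in the persistent libraries, against 1.88, 0 and 3.00 after 48 h (log2 difference 8.07 ± 0.46, and 7.48 without 48 h library 2). GABRQ, a GABA receptor subunit, had 535 reads in the persistent line and none after 48 h, at least 166-fold higher. INHBE, an inhibin subunit and known stress-induced gene, averaged 976 in the persistent line from 3237 reads, against 21 reads after 48 h (log2 difference 7.09 ± 0.34). MAL, a membrane raft protein, averaged 828 ± 50.2 in the persistent line and 10.8 ± 8.84 after 48 h (log2 difference 6.37 ± 0.40, and 7.0 without persistent library 2 and 48 h library 3). SPNS3, CRHBP, DGKB, PF4, WLS, CABP7 and CHAC1 made up the 12 largest rises. CRHBP, a binding protein of corticotropin-releasing hormone, had a log2 difference of 6.57 ± 0.58, and 5.76 without 48 h library 1. Those of WLS and CABP7 were 6.38 each, between 5.77 and 7.59 for WLS and between 5.25 and 7.05 for CABP7 when 1 library of 48 h was left out.

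Among the 12 largest falls, DHRS9, a retinol dehydrogenase, had 21.6, 18.7 and 12.7 in the persistent libraries, against 2456, 2246 and 2260 after 48 h (log2 difference -6.99 ± 0.19). SIGLEC6, a sialic acid-binding receptor of mast cells and placenta, averaged 5.08 in the persistent line and 694 after 48 h. NSG1, EYA1 and ABCB11 fell with log2 differences of -8.27, -7.58 and -7.22. Without persistent library 1 these were -7.63, -6.84 and -6.14, and that of ABCB11 was -8.11 without persistent library 2. After 48 h NSG1, EYA1 and ABCB11 averaged 762, 536 and 666. Their levels were 355, 46.2 and 2253 in naive cells and 98.8, 157 and 857 after DMSO, so NSG1 and EYA1 were highest after 48 h. MSLN, mesothelin, and TTN, titin, had no read in the persistent line and 457 and 375 reads after 48 h, at least 163-fold and 134-fold lower in the persistent line. Of the remaining falls 3 were PRG2 and tryptases, and 2 were transcripts named by clone only. Among the 12 most abundant genes that differed by at least 1 on the log2 scale, AHNAK had 3224, 3492 and 3849 in the persistent libraries, against 56377, 56327 and 54835 after 48 h (log2 difference -3.99 ± 0.07, adjusted p = 9.5e-11). BTK, a kinase of B and myeloid cells, fell with a log2 difference of -1.29 ± 0.06, and HMGN1 and HNRNPA2B1, which bind nucleosomes and RNA, rose with log2 differences of 1.31 ± 0.08 and 1.25 ± 0.07.

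**Figure D4:**
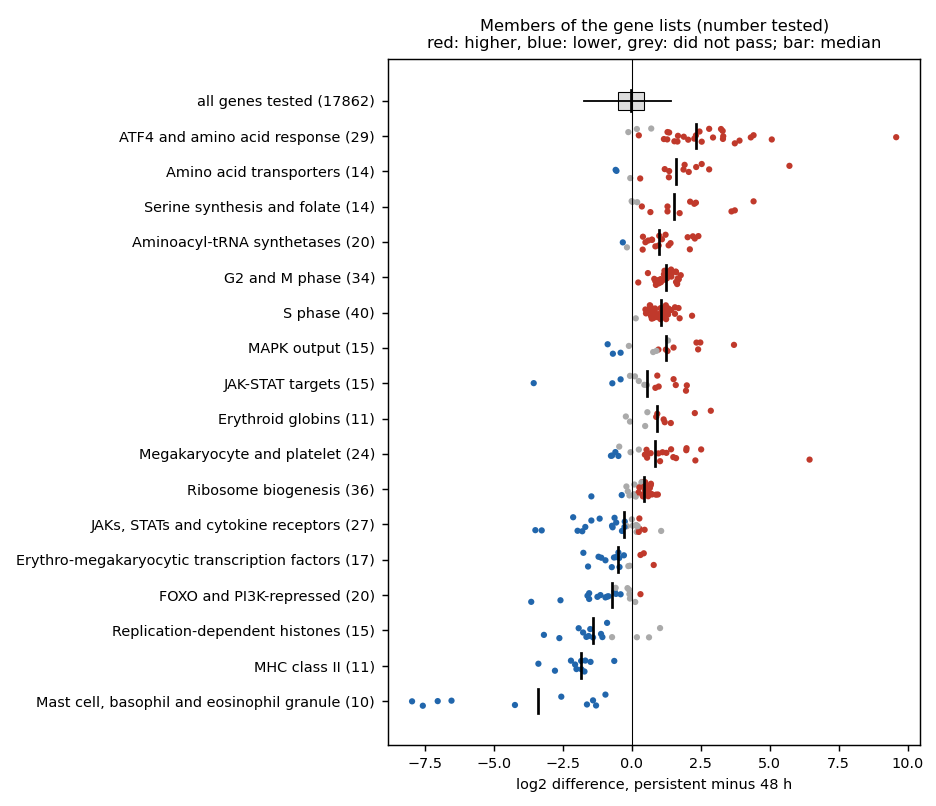
Log2 difference, persistent line minus 48 h, of each tested member of 17 gene lists, with the number tested in brackets. Red members were higher, blue lower and grey did not pass, black bars are medians, and at the top the box spans the quartiles and the line the percentiles from 5 to 95 of all 17862 genes. Medians run from 2.32 for the ATF4 list at the top to -3.40 for the mast cell, basophil and eosinophil list at the bottom.

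Levels in the other groups place both ends of the comparison, as values without a test. For each list, log2 levels were averaged over its tested members in each library and the mean of the naive libraries was subtracted. The ATF4 list stood at 0.17 to 0.27 in the persistent libraries and -2.44 to -2.20 after 48 h, against -1.34 to -1.29 after 4 h of INC424, -1.49 to -1.39 after 4 h of DMSO and -0.03 to 0.03 in naive cells. The persistent line was thus near naive cells, the 48 h group was the lowest of these 5 groups, and the vehicle alone was also under naive cells. S phase genes stood at 0.51 to 0.57 in the persistent libraries, -0.55 to -0.51 after 48 h and 0.41 to 0.47 after DMSO. G2 and M phase genes stood at 0.69 to 0.76 in the persistent libraries, -0.55 to -0.46 after 48 h and -0.02 to 0.11 after DMSO. For both cell cycle lists the persistent line lay above and the 48 h group below naive cells and the vehicle.

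JAK-STAT targets stood at -0.93 to -0.70 in the persistent libraries, -1.28 to -1.10 after 48 h, -1.84 to -1.62 after 4 h of INC424 and -0.35 to -0.22 after DMSO. All 3 INC424 groups thus lay under the vehicle for this list, with the INC424 persistent line nearest to it. FOXO and PI3K-repressed genes stood at -0.42 to -0.13 in the persistent libraries and 0.62 to 0.67 after 48 h, against -1.29 to -1.11 after DMSO. Class II genes averaged -2.07 ± 0.08 in the persistent line and -0.10 ± 0.09 after 48 h, so the 48 h group was near the naive level. They averaged -0.54 ± 0.21 after 4 h of DMSO and -0.57 ± 0.01 after 4 h of INC424. Mast cell, basophil and eosinophil genes averaged -4.27 ± 0.41 in the persistent line and -0.15 ± 0.03 after 48 h. Their levels were -1.22 ± 0.11 after 4 h of DMSO and -1.06 ± 0.05 after 4 h of INC424. For both lists the 48 h group thus lay above the vehicle and the persistent line below it. Globins averaged 3.26 ± 0.29 in the persistent line and 2.22 ± 0.20 after 48 h, both above naive cells. KIT averaged 22816 ± 1619 and CD34 31671 ± 2509 in naive cells, both near the 48 h values.

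**Figure D5:**
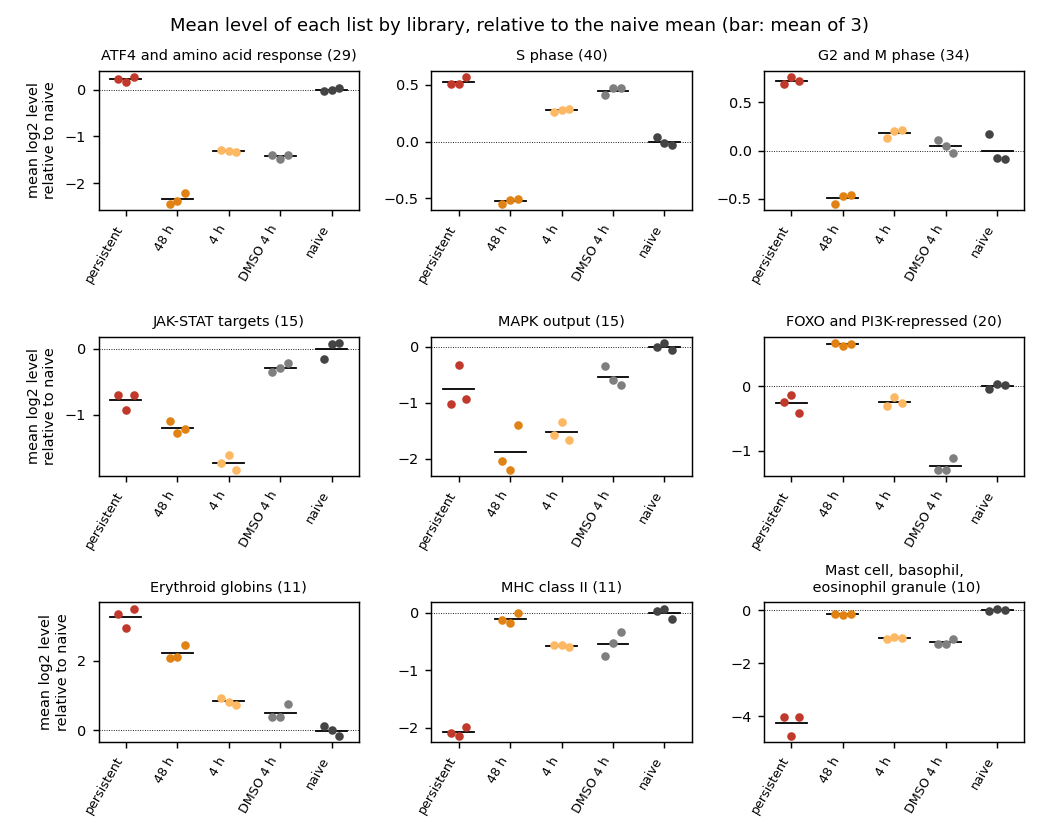
Mean log2 level of 9 gene lists in each library, relative to the mean of the naive libraries, with a bar at the mean of 3 and the number of genes in brackets. The persistent line lies near naive cells for the ATF4 list (0.22), where 48 h of INC424 lies at -2.34, while the class II and mast cell lists lie at -2.07 and -4.27 in the persistent line and -0.10 and -0.15 after 48 h.

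Values in the other persistent lines are given side by side, with no test, for 4 genes described above. In the CYT387 line each library is given, since its library 2 is the richest in squamous markers. SAR302503 library 3 also had 0.111% of its reads in them. Its CHAC1 value was 1043.6, against 536.5 and 580.7 in libraries 1 and 2 of that line. KIT averaged 2818 ± 137 in the INC424 line, 3212 ± 66.7 in the BMS911543 line and 4391 ± 1159.6 in the SAR302503 line, and had 10977, 3795 and 10085 in the CYT387 libraries. All 12 of these libraries were below the naive libraries, which had 21612 to 24656. CIITA averaged 59.8 ± 13.7 in the INC424 line, 46.6 ± 7.48 in the SAR302503 line and 754 ± 97.3 in the BMS911543 line, and had 1886, 1486 and 2014 in the CYT387 libraries, against 651 ± 71.9 in naive cells. The class II list stood at -2.07 in the INC424 line, -3.50 in the SAR302503 line and 0.33 in the BMS911543 line, relative to naive cells. In CYT387 libraries 1, 2 and 3 it stood at 1.85, 2.63 and 1.77. CBS averaged 51227 ± 6162 in the INC424 line, 29653 ± 3452 in the SAR302503 line and 6269 ± 857 in the BMS911543 line, and had 26937, 10096 and 28738 in the CYT387 libraries. CHAC1 averaged 2669 ± 450 in the INC424 line, 720 ± 281 in the SAR302503 line and 118 ± 17.9 in the BMS911543 line, and had 1254, 808 and 1122 in the CYT387 libraries. The class II list was thus below naive cells in the INC424 and SAR302503 lines and above them in the CYT387 line, and CBS and CHAC1 were highest in the INC424 line of these 4 lines.

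Survival genes were mixed. Of 15 BCL2 family genes 6 rose and 3 fell. PMAIP1, the pro-apoptotic NOXA and an ATF4 target, averaged 829 ± 77.3 in the persistent line and 289 ± 14.9 after 48 h, while BMF, a pro-apoptotic FOXO target, averaged 212 ± 9.22 and 482 ± 46.0 in the same groups. BCL2A1, an anti-apoptotic NF-kB target, averaged 5.62 ± 2.84 in the persistent line and 59.7 ± 26.2 after 48 h (log2 difference -3.21 ± 0.52). The NF-kB list did not share this direction: of 18 tested, 11 rose and 3 fell, with a median log2 difference of 0.42. Of 9 ABC drug transporters 5 fell and 1 rose. ABCB1, the multidrug exporter, averaged 2135 ± 41.4 in the persistent line and 1863 ± 109 after 48 h (log2 difference 0.20), a call lost in 10 of 22 alternatives, among them leaving out any 48 h library and leaving out persistent library 1 or 3. ABCC3, an exporter of conjugates, averaged 728 ± 34.3 in the persistent line and 3491 ± 114 after 48 h (log2 difference -2.26 ± 0.08). IGFBP5, a binding protein of insulin-like growth factors, had 5248, 4671 and 5092 in the persistent libraries, against 470, 447 and 451 after 48 h (log2 difference 3.45 ± 0.08, adjusted p = 2.7e-10).

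Markers of other cell types that moved are given as measured. Of 11 squamous markers tested 6 were called higher, but for 1 of them alone, PERP, the groups did not overlap. The number called depended on the libraries and the test: 0 with DESeq2 or the robust fit, 3 with edgeR, 1 without 48 h library 1, 48 h library 2 or persistent library 2, and 11 without 48 h library 3. PERP had 277, 554 and 231 in the persistent libraries, against 6.56, 7.77 and 155 after 48 h, with a log2 difference of 3.92 ± 0.91, between 3.16 and 5.34 when a 48 h library was left out. Its call was lost with DESeq2 and the robust fit. Without persistent library 2 and 48 h library 3 all 11 were called higher, with a median log2 difference of 3.82. LUM, a collagen-binding proteoglycan, had 45.4, 79.2 and 62.6 in the persistent libraries, against 3.75, 2.91 and 0 after 48 h, while COL3A1, a fibrillar collagen, had 1.13, 4.26 and 3.17 against 34.7, 64.1 and 88.1. Over the whole fibroblast and vessel list of 12 tested 3 rose and 4 fell, and its summed level was 11952 to 13446 in the persistent line and 18088 to 19114 after 48 h, most of it VIM. Without the 2 libraries richest in squamous markers 26 of 29 ATF4 list genes and 39 of 40 S phase genes rose. So did 33 of 34 G2 and M phase genes, while all 11 class II and all 10 mast cell list genes fell. The libraries kept still differed in summed squamous markers, at 2400 and 1937 in the persistent line against 295 and 133 after 48 h. Leaving out those 2 libraries thus did not balance the groups, and the part of these cell types in the differences described was not tested.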

How the data were processed

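Poly(A) RNA of 24 SET2 libraries in 8 groups of 3 was sequenced, and 6 libraries entered the test. The deposited table holds normalised counts of 25082 genes, a signal that the authors made by dividing read counts by 1 size factor per library; per the submitters' processing notes BWA 0.7.5.1, HTSeq 0.5.3p3, DESeq 1.10.1, hg19 and GRCh37 were used, with no role given. Each library's values are multiples of a single step, and reads recovered from it came out whole for 100% of values (tolerance 0.01). The libraries of 48 h number 2 and persistent number 3 were run again. Whether counting used strand is not given in the sources used here. Of the symbols, 21 had been turned into dates.

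Genes with a value of at least 10 in at least 3 of the 6 libraries were tested on log2(value + 1) with limma 3.58.1 (R 4.3.3, empirical Bayes with trend, two-sided, Benjamini-Hochberg over all genes tested). A fold on this scale understates the change of low genes. The comparison, its members, the 45 gene lists (931 entries, 910 in the table, some in several lists) and the way named genes are picked were set with earlier results of these data known. Lists are described by counts and medians beside all genes, with no set test. Named genes are the 12 largest rises and falls with a mean of at least 50 and no overlap, the 12 most abundant with a log2 difference of at least 1, up to 4 list members per direction (or 2 where none passed), and the JAKs and STATs. Exceptions picked after their values were seen are ATF4, ATF5, STC2, ALDH18A1, CEBPG, TRIB3, DDIT4, CISH, SOCS2, SOCS3, MCM6 and the markers of other cell types. Where a group had 0 reads, a fold is against 3 reads over the group, and with 1 to 3 reads a 95% Clopper-Pearson interval is given. Promoters come from the RefSeq table of GRCh38.p14. The test was also run on simulated counts in which a small share of genes was changed, unlike the 52% called here. The simulation reused the scaling of the libraries, so it cannot check that scaling. Alternatives were other pseudocounts, filters, scalings, variance models and fits, omission of libraries, and count tests of the recovered reads with edgeR 4.0.16 and DESeq2 1.42.0.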

Additional observations from a re-analysis of the deposited data

How the results depend on the processing

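The number of genes called was 9287, and 7836 to 9603 under all alternatives but 1. A fit of all 8 groups called 5975, and 7931 without CYT387 persistent library 2. In that fit of all 8 groups the lower calls numbered 2, in place of 8, for endoplasmic reticulum chaperones and 1, in place of 6, for red cell membrane genes, and the higher calls 0, in place of 5, for the JAK, STAT and receptor list. Leaving out each library gave 7836 to 9465, the run-again term 8888, edgeR 9146 and DESeq2 9107. TMM scaling moved the higher calls to 4702 and the lower calls to 4583. No gene called in both had the opposite sign in any of the 22 alternatives. Of 4149 recomputed differences of the 189 named genes, 66 lost and 5 gained their call and none reversed. Of 990 list medians 76 moved by more than the spread between replicates. Counted apart from that spread, 31 of the 990 moved by over 0.2. Deviations of same-numbered libraries had correlations of 0.04, -0.188 and -0.23, which gave no sign of pairing by number but cannot exclude it. The highest correlation, 0.278, was between persistent library 2 and 48 h library 3, the richest in squamous markers. A replicate block called 9603. Folds of genes with 0 to 3 reads in a group are limited by depth, and no alternative can separate 48 h of inhibitor from 48 h of culture, since no vehicle of that time was analysed.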
